A study of Mus musculus with 4 samples.

Results

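The genes described here are the cytochrome P450 genes of families 1, 2 and 3, measured in mouse liver. A gene was counted as a member when its platform symbol began with Cyp, followed by 1, 2 or 3 and a letter, and when a probe set on the array carried that symbol alone. This rule gave 54 of the 19938 genes that were named on the array, in 17 subfamilies, and each of the 54 was read by 1 probe set. The largest subfamilies were Cyp2c with 13 members, Cyp2d with 10, Cyp2j and Cyp3a with 6 each and Cyp2b with 5.

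P450 enzymes are haem proteins of the endoplasmic reticulum that insert 1 atom of molecular oxygen into their substrates, with electrons passed on by the P450 reductase and cytochrome b5. Families 1 to 3 carry most of the drug and toxicant oxidation of the liver, and many of them also hydroxylate steroids, bile acids or polyunsaturated fatty acids. In rodents the Cyp2 and Cyp3 subfamilies have expanded into clusters of close copies. Many of these copies are set by the sex pattern of growth hormone, and others by the xenobiotic receptors CAR, PXR and AhR.

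Each group was 1 array of RNA pooled from 3 pairs of mice. The groups were SIRT6Co/Co;Alb-Cre mice at 8 months, SIRT6Co/Co;Alb-Cre mice at 2 months, WT SIRT6 mice at 8 months and WT SIRT6 mice at 2 months, on 4 arrays in all. The submitters' titles call the first genotype KO and the second WT, and those names are used below as labels. SIRT6 is a chromatin-bound, NAD-dependent deacylase, and the albumin promoter that drives Cre is active in hepatocytes, so other liver cells would keep the conditional allele. The labels do not state the sex of the mice, nor whether the WT mice carried Cre or the conditional allele.

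Values are deposited RMA levels on the log2 scale, so a difference of 1 is a factor of 2, and pairs of values are given for 8 months first and 2 months second. A gene was tested when its mean over the 4 arrays passed the 40th percentile of all genes, a level of 3.34. The test was an additive limma model of genotype and age on the 4 arrays with Benjamini-Hochberg adjustment over all 11963 genes that passed, at an adjusted p of 0.05. The words rose and fell are used only for genes past it and mean KO relative to WT. With 1 pool in each group the model has 1 residual degree of freedom, so its p-values measure neither the spread between pools nor that between animals, and a difference at a single age has no test.

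The targeted gene did not separate the labels. Sirt6 read 4.46 and 4.54 in the KO-labelled arrays, against 4.50 and 4.55 in the WT-labelled arrays, and did not pass (limma adjusted p 0.92). The labels do not state which exons are deleted or covered by the probe set, so this reading does not check the genotypes. The tissue label was borne by the level of hepatocyte markers on all 4 arrays. The log2 of the summed linear level of 7 tested markers was 14.71 and 14.75 on the KO arrays, against 14.77 and 14.73 on the WT arrays. Between genotypes 0 of the 7 passed, where 6.81% of all genes tested rose and 4.26% fell. Cps1 and Apoa1 came closest, both lower in KO, with limma adjusted p of 0.059 and 0.06. In a bulk sample, fewer cells of a type and less RNA per cell cannot be told apart.

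Of the 54 P450 genes, 38 passed the expression filter and were tested. Of these, 7 rose, or 18.4%, where 6.81% of all genes tested rose. They were Cyp2d12, Cyp2b13, Cyp2b9, Cyp2d40, Cyp2a22, Cyp2u1 and Cyp2j9. Cyp3a13, Cyp2d37-ps and Cyp2d22 fell, a count of 3 of 38 or 7.89%, where 4.26% of all genes tested fell. The other 28 did not pass, and 25 of them were less than 1.5-fold apart at both ages. The split depended on the scaling of the arrays, since 7 rose and 7 fell after quantile normalizing the 4 arrays again, and 10 rose and 8 fell after cyclic loess. Counts over all 11963 genes moved as well, to 746 that rose and 669 that fell after quantile normalization and to 1087 and 880 after cyclic loess, where the deposited scale gave 815 and 510.

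All 10 genes past the test lay above the filter level on every array, and in all 10 both KO arrays lay on 1 side of both WT arrays. That separation was seen in 20 of 38 P450 genes, or 52.6%, which is close to the 54.8% of all genes tested. A 1.5-fold difference was reached in fewer. At 8 months 5 of 38 P450 genes were at least 1.5-fold higher in KO and 1 was lower, against 2.41% and 1.93% of all genes. At 2 months 9 were at least 1.5-fold higher in KO and 1 was lower, against 3.98% and 2.39% of all genes. Cyp2b13, Cyp2b9, Cyp2d12 and Cyp2d40 were 1.5-fold higher at both ages, a count of 4 of 38 where 1.78% of all genes did so. Cyp3a13 was the 1 gene of 38 that was 1.5-fold lower at both ages, where 1.06% of all genes did so.

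**Figure D1:**
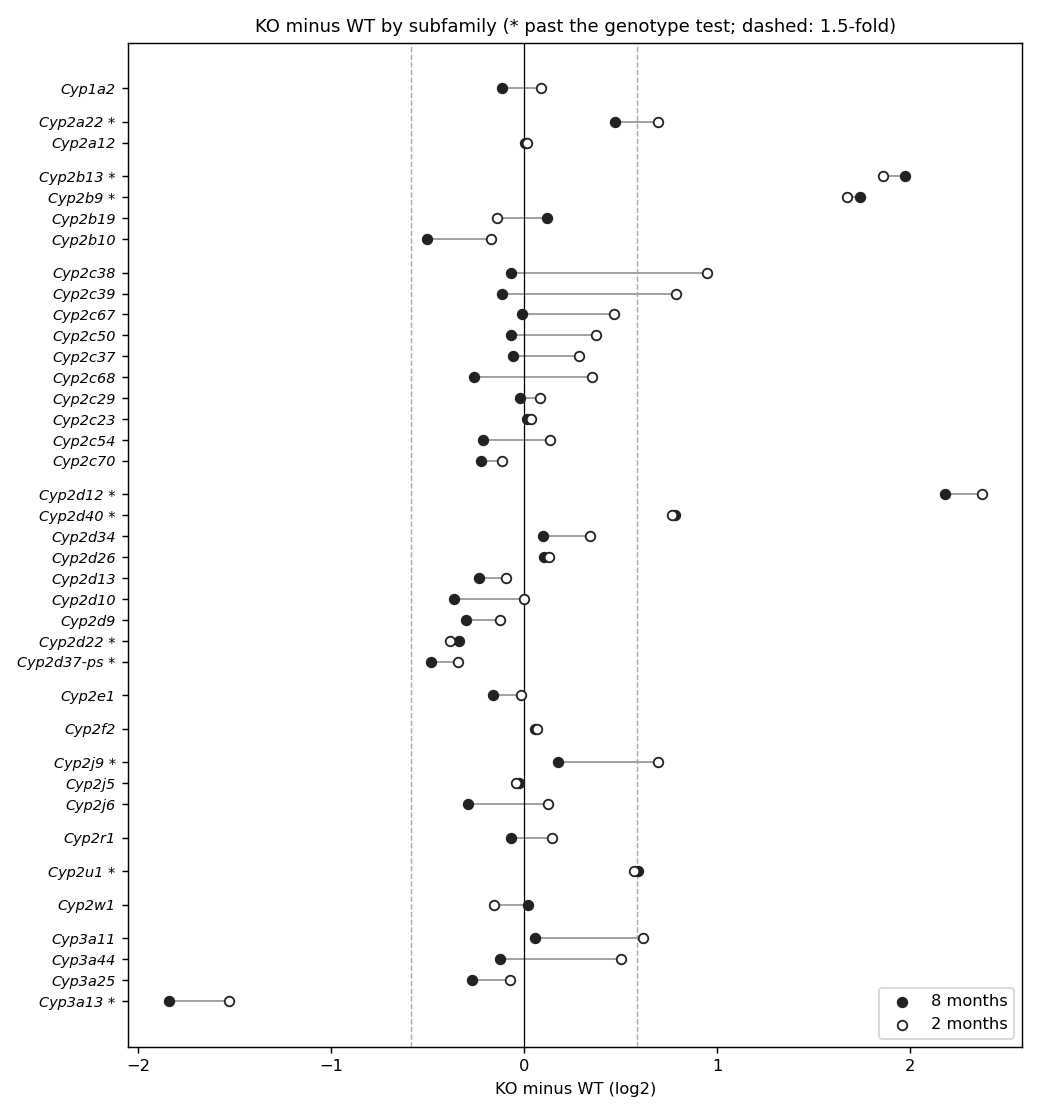
KO minus WT difference on the log2 scale (horizontal axis) for each of the 38 P450 genes tested, grouped by subfamily, with filled points for 8 months, open points for 2 months, dashed lines at 1.5-fold and an asterisk on the 10 genes past the genotype test. Cyp2d12, Cyp2b13 and Cyp2b9 lie far to the right and Cyp3a13 far to the left at both ages, while most other genes lie within the dashed lines.

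The subfamily medians of the KO minus WT difference are given for 8 months and then for 2 months, where all genes tested had 0.00 and 0.01. The Cyp2b median was 0.93 at 8 months and 0.77 at 2 months over 4 tested genes, and the Cyp2a median was 0.24 and 0.35 over 2. In Cyp2c the median was -0.07 and 0.32 over 10 genes, and in Cyp3a -0.20 and 0.21 over 4. The Cyp2d median over 9 genes was -0.23 at 8 months and 0.00 at 2 months, and its sign at 2 months turned with the scaling, to -0.06 after cyclic loess and -0.07 after renewed quantile normalization. No subfamily with more than 1 tested gene had all of its tested genes past the test.

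Subfamily Cyp2b split into neighbours that rose and neighbours that did not. Cyp2b9 is a steroid hydroxylase that is higher in female than in male mouse liver, Cyp2b13 is its closest relative with the same sex bias, and Cyp2b10 is the classic target of CAR in phenobarbital induction. Whether start-site sequence had a part in the Cyp2b split was not tested. The stretches before the start sites of these 3 genes are shown, those of Cyp2b9 and Cyp2b13 being almost identical and that of Cyp2b10 different. They are the 250 bases before the RefSeq start in build GRCm38.p6, read 5′ to 3′ on the plus strand, for Cyp2b9 at chr7:26173159-26173408, Cyp2b13 at chr7:26061245-26061494 and Cyp2b10 at chr7:25897408-25897657. Capitals mark matches to AGGTCA, a core recognition pattern of nuclear receptors, and to GCGTG, the AhR core, on either strand, so that CACGC is GCGTG read on the other strand, and the matches shown do not overlap.
Cyp2b9: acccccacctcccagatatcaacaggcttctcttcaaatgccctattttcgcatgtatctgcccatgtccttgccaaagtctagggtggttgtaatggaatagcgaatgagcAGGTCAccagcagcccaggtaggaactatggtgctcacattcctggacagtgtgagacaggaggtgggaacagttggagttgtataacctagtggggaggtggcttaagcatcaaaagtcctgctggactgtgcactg
Cyp2b13: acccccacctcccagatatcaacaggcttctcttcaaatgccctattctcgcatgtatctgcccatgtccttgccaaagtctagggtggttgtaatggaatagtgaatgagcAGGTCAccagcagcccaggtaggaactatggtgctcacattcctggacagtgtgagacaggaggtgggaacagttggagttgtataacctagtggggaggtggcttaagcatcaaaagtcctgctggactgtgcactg
Cyp2b10: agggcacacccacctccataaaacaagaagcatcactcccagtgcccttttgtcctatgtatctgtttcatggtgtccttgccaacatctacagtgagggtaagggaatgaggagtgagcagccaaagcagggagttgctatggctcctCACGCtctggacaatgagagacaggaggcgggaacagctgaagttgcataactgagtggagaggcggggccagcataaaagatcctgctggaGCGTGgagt

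The Cyp2b9 and Cyp2b13 stretches were identical at 248 of 250 positions, or 99.2%. The 2 substitutions were T48C and C104T, with the Cyp2b9 base first and positions counted from 1 at the 5′ end of the stretch. Cyp2b10 was identical to either of them at 71.0% of aligned positions. The match to AGGTCA at position 113 was present in Cyp2b9 and Cyp2b13 and had no counterpart in Cyp2b10, which held 2 matches to GCGTG. Cyp2b19 also held a match to AGGTCA. It is another tested Cyp2b gene that did not pass, and its mean level of 3.35 was barely above the filter level of 3.34.

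Both genes of this pair rose. Cyp2b9 read 9.67 and 9.67 in KO livers, against 7.93 and 8.00 in WT livers. Its mean difference was 1.71 (SE 0.08), a 3.26-fold higher level in KO with a limma adjusted p of 2.1e-08. Its neighbour Cyp2b13 read 5.70 and 5.78 in KO livers, against 3.73 and 3.92 in WT livers. The KO arrays of both genes stood clearly above the WT arrays, and the 2 ages of a genotype lay close together. Cyp2b13 had a mean difference of 1.92 (SE 0.13), a 3.78-fold higher level, with a limma adjusted p of 6.2e-07. Both genes passed under each of 13 other settings, including those that left out any 1 array. How far the probes of one gene also read the other was not tested, since no probe sequences were used here.

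Cyp2b10 ran the other way without passing. It read 6.59 and 6.71 in KO livers, against 7.09 and 6.88 in WT livers, a mean difference of -0.34 (SE 0.10) with a limma adjusted p of 0.056. Its KO arrays were both below its WT arrays, and the difference passed under 5 of 13 other settings, with an adjusted p between 0.004 and 0.28. Cyp2b19, an epoxygenase known from skin, differed by 0.12 and -0.14 and did not pass (limma adjusted p 0.98). Its mean of 3.35 was barely above the filter level of 3.34. The KO array at 2 months (3.28) and the WT array at 8 months (3.28) lay below that level, so it was hardly detected. Cyp2b23 lay below the filter, and with it included the subfamily's median difference was 0.12 and 0.20, where the 4 tested members gave 0.93 and 0.77.

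**Figure D2:**
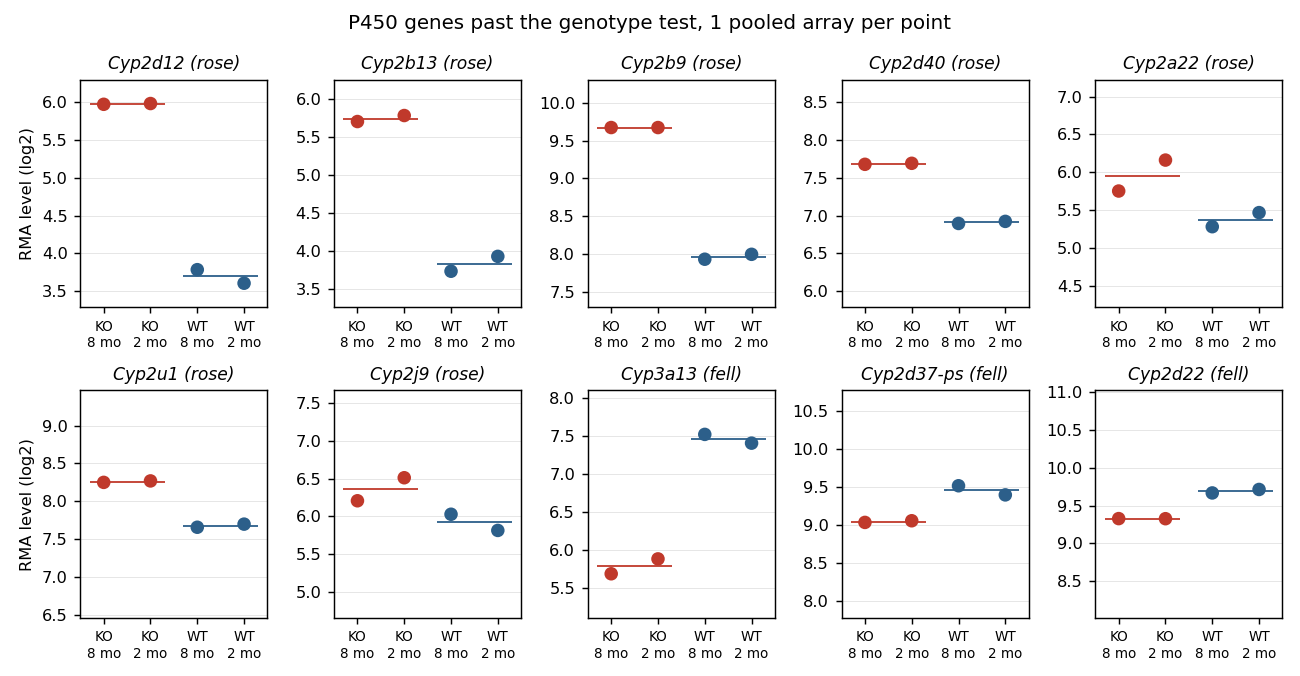
RMA level (log2, vertical axis) of each of the 10 P450 genes past the genotype test, with 1 point for each pooled array in the order KO at 8 months, KO at 2 months, WT at 8 months and WT at 2 months, a line at the mean of each genotype and the same span of log2 units in every panel. In all 10 panels both KO points lie on 1 side of both WT points, and the gap is widest for Cyp2d12 with 5.97 and 5.98 in KO and 3.79 and 3.61 in WT.

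Subfamily Cyp2d held the P450 gene with the highest difference and both of the smaller decreases. The Cyp2d enzymes of mice are related to human CYP2D6, and Cyp2d9 is a testosterone 16-alpha hydroxylase that is higher in males. Of its 9 tested members, 2 rose and 2 fell. Cyp2d12 read 5.97 and 5.98 in KO livers, against 3.79 and 3.61 in WT livers. Its mean difference of 2.28 (SE 0.13) is a 4.85-fold higher level in KO, with a limma adjusted p of 1.4e-07. Its WT level was near the filter level of 3.34. Cyp2d40 read 7.68 and 7.69 in KO livers, against 6.90 and 6.92 in WT livers. This was a 1.71-fold higher level (0.77 on the log2 scale, SE 0.09, limma adjusted p 7.7e-05) that was nearly the same at both ages.

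The decreases in the Cyp2d group were small. Cyp2d22, which has been proposed as the mouse counterpart of human CYP2D6, read 9.33 and 9.33 in KO livers, against 9.67 and 9.71 in WT livers. Its difference was -0.36 (SE 0.08), with a limma adjusted p of 0.0077. Cyp2d37-ps, a transcribed pseudogene in RefSeq, read 9.04 and 9.06 in KO livers, against 9.52 and 9.40 in WT livers. Its difference was -0.41 (SE 0.08), with a limma adjusted p of 0.0043. These 2 calls were lost when the fit had no intensity trend, where the adjusted p was 0.081 for Cyp2d22 and 0.058 for Cyp2d37-ps. Cyp2d13, the other transcribed pseudogene, differed by -0.23 and -0.10 and Cyp2d9 by -0.30 and -0.13, and neither passed, with limma adjusted p of 0.21 and 0.11. Cyp2d10 differed by -0.36 at 8 months and 0.00 at 2 months, Cyp2d26 by 0.10 and 0.13 and Cyp2d34 by 0.10 and 0.34, and none of the 3 passed. As these genes are close copies, probes may not fully separate them.

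The order of the genes along the chromosome is given among the members on the array, which leaves out genes and pseudogenes with no probe set of their own. In the Cyp2a, Cyp2b, Cyp2f, Cyp2g, Cyp2s and Cyp2t cluster, Cyp2b13 and Cyp2b9 follow each other in this order, with Cyp2b10 on 1 side and Cyp2b23 and Cyp2b19 on the other. In the full RefSeq order Cyp2b26-ps lies between the pair, and Cyp2a4, which shares a probe set with Cyp2a5, lies between Cyp2b9 and Cyp2b23. In the Cyp2d cluster Cyp2d12 lies between Cyp2d9 and Cyp2d34 among the members, and neither of these passed. Cyp2d40 lies between Cyp2d37-ps, which fell, and Cyp2d26, which did not pass.

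**Figure D3:**
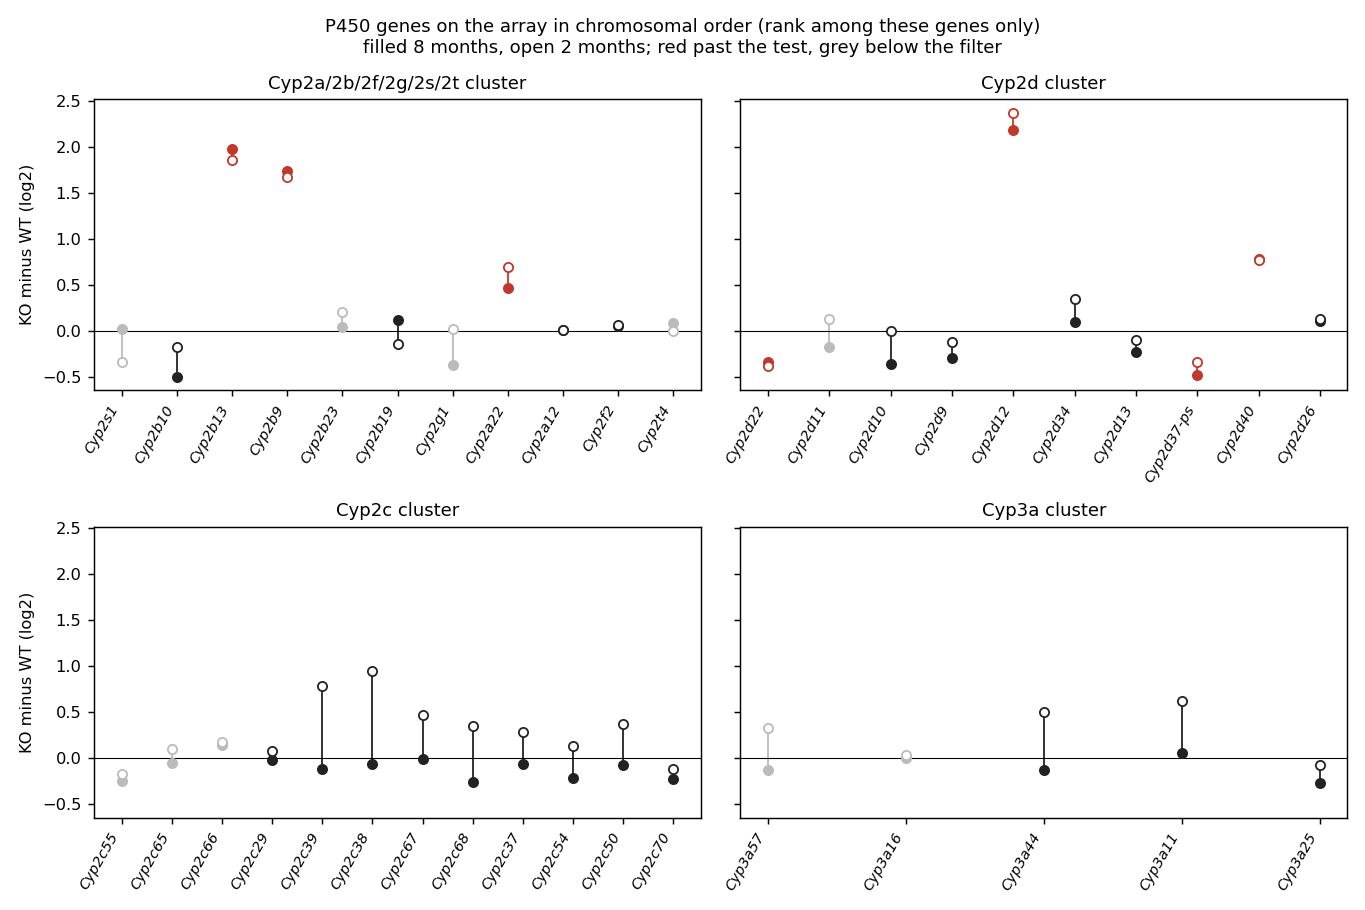
KO minus WT difference on the log2 scale (vertical axis) of P450 genes in 4 chromosomal clusters, placed by their rank among the members on the array and not to scale, with filled points for 8 months, open points for 2 months, red for genes past the genotype test and grey for genes below the expression filter. Cyp2b13 and Cyp2b9 stand together at 1.67 to 1.98 beside Cyp2b10 at -0.50 and -0.17, and Cyp2d12 stands alone between Cyp2d9 and Cyp2d34.

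Among the Cyp2a genes, which oxidise coumarin, nicotine and steroids, 1 of 2 tested members rose. Cyp2a22 read 5.75 and 6.16 in KO livers, against 5.28 and 5.47 in WT livers. The mean difference was 0.58 (SE 0.11), with a limma adjusted p of 0.005. It rested on 2 arrays more than on the others, since the adjusted p was 0.19 without the KO array at 2 months and 0.085 without the WT array at 8 months. Cyp2a12, a steroid and bile acid 7-alpha hydroxylase, read 9.75 and 9.79 in KO livers, against 9.75 and 9.78 in WT livers, with a limma adjusted p of 0.96. The 250 bases before the starts of these 2 genes were identical at 82.5% of aligned positions.

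Cyp2u1 and Cyp2j9 were the remaining genes that rose. Cyp2u1, a hydroxylase of long-chain fatty acids that is higher in male mouse liver, read 8.25 and 8.27 in KO livers, against 7.66 and 7.70 in WT livers. That is a mean difference of 0.58 (SE 0.08, limma adjusted p 0.0005), and it passed under all 13 other settings. Cyp2j9 belongs to a subfamily that makes epoxides of arachidonic acid. It read 6.21 and 6.51 in KO livers, against 6.03 and 5.82 in WT livers. The difference of 0.18 at 8 months was smaller than the 0.70 at 2 months, and their mean was 0.44 (SE 0.12, limma adjusted p 0.042). This call passed under 8 of 13 other settings and was lost without the KO array at 2 months, with an adjusted p of 0.29, and without the WT array at 2 months, with 0.22. Cyp2j6 read 7.13 and 7.45 in KO livers, against 7.42 and 7.33 in WT livers, and Cyp2j5 differed by -0.02 and -0.04. Neither passed, and with the other scalings the sign of the Cyp2j median at 8 months was not stable, at -0.02 as deposited and 0.03 after cyclic loess.

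Cyp3a13 was the P450 gene with the lowest difference and stood apart within its subfamily. The Cyp3a enzymes oxidise a wide range of drugs and steroids, and Cyp3a11 is the main hepatic form in mice and a classic PXR target. Whether start-site sequence had a part in the Cyp3a13 difference was not tested. The 250 bases before the starts of both genes are shown because Cyp3a13 fell while Cyp3a11 did not pass. They lie on the minus strand in build GRCm38.p6, at chr5:137921620-137921869 for Cyp3a13 and at chr5:145879855-145880104 for Cyp3a11, and are given 5′ to 3′ as RefSeq has them. Capitals mark matches to AGGTCA and to the TATA box letters TATAAA on either strand, and the matches do not overlap.
Cyp3a13: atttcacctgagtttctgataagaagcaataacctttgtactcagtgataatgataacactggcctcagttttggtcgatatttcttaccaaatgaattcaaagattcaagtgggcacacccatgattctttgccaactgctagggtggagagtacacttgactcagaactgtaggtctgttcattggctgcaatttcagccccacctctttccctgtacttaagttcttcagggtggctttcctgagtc
Cyp3a11: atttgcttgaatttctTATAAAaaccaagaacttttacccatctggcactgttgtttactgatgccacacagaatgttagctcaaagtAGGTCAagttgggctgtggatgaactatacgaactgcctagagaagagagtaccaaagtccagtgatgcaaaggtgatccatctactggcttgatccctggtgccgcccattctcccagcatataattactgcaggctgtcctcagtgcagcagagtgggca

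The 2 stretches were identical at 57.2% of aligned positions. Cyp3a13 held no match to any of the 4 patterns that were searched for, while Cyp3a11 held AGGTCA at position 89 and TATAAA at position 17. No match says only that these letters are not in this window.

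Cyp3a13 read 5.68 and 5.88 in KO livers, against 7.52 and 7.41 in WT livers. Its difference of -1.68 (SE 0.10) is a 3.21-fold higher level in WT, with a limma adjusted p of 3.7e-07, and it passed under all 13 other settings. Cyp3a11 read 10.39 and 10.74 in KO livers, against 10.33 and 10.12 in WT livers. It was near even at 8 months, with a difference of 0.06, and 1.5-fold higher in KO at 2 months, with 0.62. The limma adjusted p was 0.067, and it passed under 4 of 13 other settings, among them leaving out the KO array at 8 months (0.036) or the WT array at 8 months (0.02). Cyp3a44, a form that is higher in female liver, differed by -0.13 and 0.50, and Cyp3a25 by -0.27 and -0.07. Neither passed, with limma adjusted p of 0.48 and 0.20.

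No Cyp2c gene passed the genotype test at the adjusted threshold in the fit of limma, out of 10 tested. An unadjusted limma p under 0.05 was seen in 4 of the 10 and in 18 of all 38 tested P450 genes. This share was not counted over all genes. Most Cyp2c enzymes make epoxides and hydroxides of arachidonic and linoleic acid, Cyp2c39 also hydroxylates retinoic acid, and Cyp2c70 makes the muricholic bile acids of rodents. Cyp2c38 read 6.32 and 6.68 in KO livers, against 6.39 and 5.73 in WT livers, with a limma adjusted p of 0.14. Cyp2c39 read 10.30 and 10.55 in KO livers, against 10.42 and 9.76 in WT livers, with a limma adjusted p of 0.18. Both genes were about even between genotypes at 8 months and apart by 0.95 and 0.79 at 2 months, where the WT array was the lowest of the 4. Their mean differences hung on which WT array was kept. Without the WT array at 8 months they were 0.77 for Cyp2c38 and 0.67 for Cyp2c39. Without the WT array at 2 months they were 0.11 and 0.01. Cyp2c70 read 10.91 and 10.95 in KO livers, against 11.14 and 11.06 in WT livers, and did not pass, with a limma adjusted p of 0.18. After cyclic loess all 3 genes passed, with limma adjusted p of 0.021 for Cyp2c38, 0.0061 for Cyp2c39 and 0.039 for Cyp2c70. Each of the 3 passed under 2 of 13 other settings, cyclic loess among them.

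Most Cyp2c genes were lower in KO at 8 months and higher in KO at 2 months. KO was lower than WT in 9 of 10 at 8 months and higher in 9 of 10 at 2 months, with medians of -0.07 and 0.32, where the medians of all genes were 0.00 and 0.01. These counts were 7 and 8 of 10 after cyclic loess or renewed quantile normalization, and 8 and 9 of 10 after median centring. Seen by age, 9 of 10 were lower at 8 than at 2 months in KO livers, with a median of -0.19, and 10 of 10 were higher at 8 than at 2 months in WT livers, with a median of 0.19. Of all 11963 genes, 6918 were lower at 8 months in KO and 6037 higher in WT, with medians of -0.03 and 0.00. The pattern was not confined to Cyp2c. Of all 38 tested P450 genes, 34 were lower at 8 months in KO and 26 higher in WT. In Cyp3a both counts were 4 of 4, in Cyp2d 8 and 6 of 9, and in Cyp2b 2 and 1 of 4. Between genotypes, 5950 of all genes were lower in KO at 8 months and 6256 higher at 2 months. As the 10 Cyp2c genes are close copies, probes may not fully separate them, and they are not independent counts. The KO array at 2 months was the highest of the 4 arrays in 7 of 10 and the WT array at 2 months the lowest in 7 of 10, and both held in 5 of 10. Over all 11963 genes the KO array at 2 months was the highest in 35.4% and the WT array at 2 months the lowest in 25.4%. Over all 38 tested P450 genes these shares were 55.3% and 31.6%. With 1 array in each group, a difference between ages in the genotype effect has no test, and the part of either array in this turn was not tested.

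**Figure D4:**
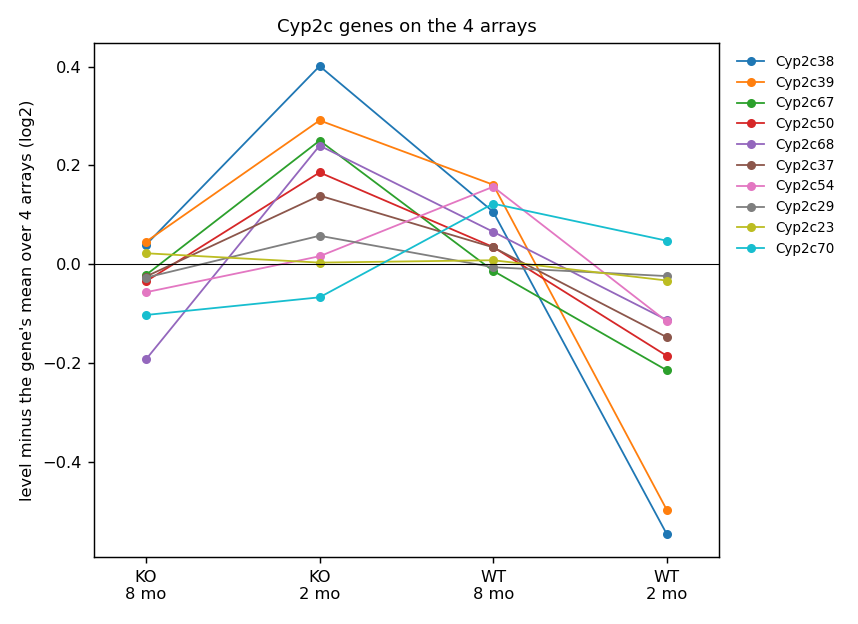
Level of each of the 10 tested Cyp2c genes on the 4 pooled arrays, as the difference from that gene's own mean over the arrays (log2, vertical axis), with lines that only join the points of a gene. Of the 10 genes, 7 are highest on the KO array at 2 months, 7 are lowest on the WT array at 2 months and 5 are both, most widely Cyp2c38 and Cyp2c39, while Cyp2c70 is highest on the WT array at 8 months.

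Age by itself passed in no P450 gene. Cyp2a22 was the 1 gene of 38 with an unadjusted limma p under 0.05 for age, a share not counted over all genes. With the same limma fit 0 of 38 passed for 8 against 2 months, where 0.00836% of all genes did, or 1 gene. Under the other settings the count of P450 genes was 0 as well. In KO livers 0 of 38 were 1.5-fold apart between the ages, and in WT livers 2 of 38 were, namely Cyp2c38 and Cyp2c39, where 0.652% of all genes were in KO and 0.652% in WT. The difference between genotypes had opposite signs at the 2 ages in 15 of 38 P450 genes, and in 0 of them was it 1.5-fold in both directions. Opposite signs were not counted over all genes, so the 15 cannot be read as particular to P450 genes.

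**Figure D5:**
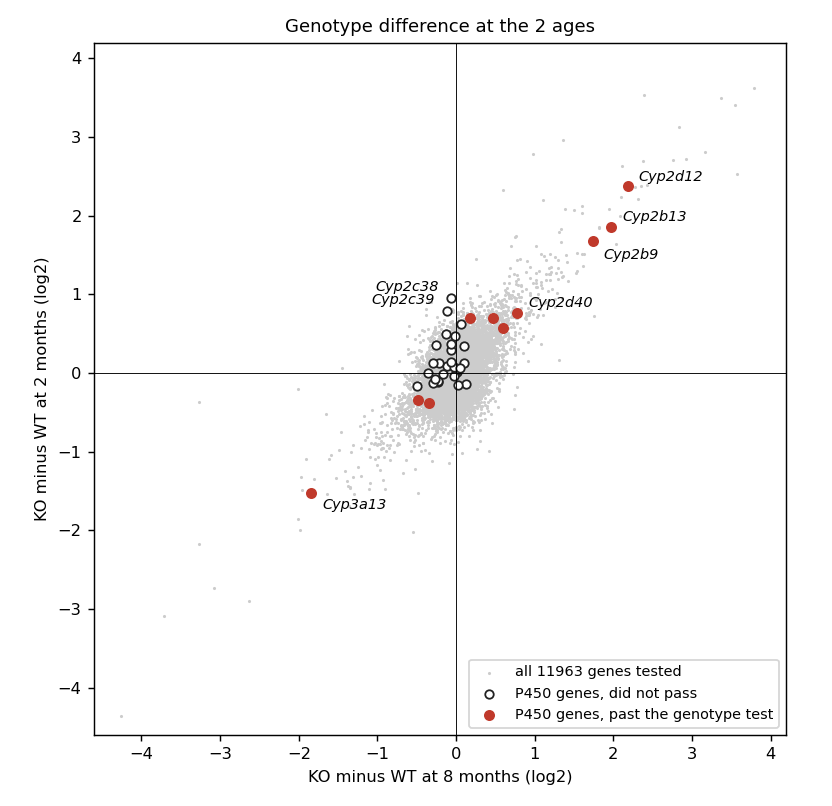
KO minus WT difference at 8 months (horizontal axis) against that at 2 months (vertical axis), both on the log2 scale, with grey points for all 11963 genes tested, open points for P450 genes that did not pass and red points for the 10 that did. Cyp2d12, Cyp2b13 and Cyp2b9 lie far out in the upper right, Cyp3a13 lies in the lower left, and Cyp2c38 and Cyp2c39 lie above 0 at 2 months only.

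The single members of the other subfamilies did not pass. Cyp1a2, the AhR-induced oxidase of caffeine and aromatic amines, differed by -0.12 and 0.09, and Cyp2e1, which oxidises ethanol and small solvents, by -0.16 and -0.02. Cyp2f2, which is kept to the periportal zone of the lobule, differed by 0.06 and 0.07. Cyp2r1, a vitamin D 25-hydroxylase, differed by -0.07 and 0.14, and Cyp2w1 by 0.02 and -0.15. These 5 genes were each less than 1.5-fold apart at both ages. Taken by zone, 0 of 4 tested pericentral P450 genes (Cyp2e1, Cyp1a2, Cyp2c29 and Cyp3a11) passed in either direction. Of all genes tested, 6.81% rose and 4.26% fell.

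The 16 members below the expression filter were not tested. They read between 1.62 and 3.35 on the 4 arrays and were Cyp1a1, Cyp1b1, Cyp2ab1, Cyp2b23, Cyp2c55, Cyp2c65, Cyp2c66, Cyp2d11, Cyp2g1, Cyp2j11, Cyp2j12, Cyp2j13, Cyp2s1, Cyp2t4, Cyp3a16 and Cyp3a57. In 0 of 16 were KO and WT 1.5-fold apart at either age. Cyp1a1 and Cyp1b1, both induced through AhR, differed by 0.00 and 0.35 and by -0.13 and -0.41.

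Members known for a sex bias in mouse liver were divided. Of 3 tested genes higher in females, Cyp2b9 and Cyp2b13 rose and Cyp3a44 did not pass. Of 2 tested genes higher in males, Cyp2u1 rose and Cyp2d9 did not pass. Outside the P450 families, 16 female-biased genes were tested, of which 3 rose and 2 fell (median differences 0.08 and -0.05). For this and the next list, 6.81% of all genes tested rose and 4.26% fell. Hamp2, a hepcidin gene, rose at 2.35 and 2.38, and the flavin monooxygenase Fmo2 fell at -1.29 and -1.54. Of 27 tested genes with a male bias, 9 rose, led by Serpina12 at 1.62 and 1.51, and 4 fell (median differences 0.09 and 0.39).

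Sex-linked genes were read as well. Xist, the RNA of the inactive X chromosome, read 2.29 and 2.66 in KO livers, against 3.08 and 4.42 in WT livers, so that the WT array at 2 months stood above the others. It lay below the expression filter and was not tested. The Y-linked genes Uty, Eif2s3y and Kdm5d lay above the filter level on every array. Uty read 6.58 and 6.63 in KO livers, against 6.37 and 6.18 in WT livers. Eif2s3y read 7.34 and 7.43, against 7.27 and 7.04, and Kdm5d 5.56 and 5.64, against 5.53 and 5.57. Their differences were 0.21 and 0.44, 0.07 and 0.39, and 0.03 and 0.07, and they did not pass. The part of the sexes in a pool in the P450 differences was not tested. In the growth hormone and STAT5 pathway 2 of 14 genes rose and 2 fell (median differences 0.02 and 0.02), where 6.81% of all genes tested rose and 4.26% fell. The feedback inhibitor Socs2 fell at -0.74 and -0.89, with a limma adjusted p of 0.0012, its relative Cish rose at 0.71 and 0.43, with 0.0072, and Stat5b differed by -0.09 and -0.27 and did not pass.

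Genes tied to the xenobiotic receptors moved in both directions. Nr1i3, which encodes CAR, read 8.62 and 8.64 in KO livers, against 9.57 and 9.60 in WT livers, and fell with a limma adjusted p of 3.7e-06. Nr1i2, which encodes PXR, differed by -0.35 and -0.17 and Ahr by -0.15 and -0.22, and neither passed. Of 5 tested P450 genes known to be induced through CAR or PXR, 0 rose and 1 fell, Cyp3a13, while Cyp2b10, Cyp2c29, Cyp2c37 and Cyp3a11 did not pass. Of 17 tested CAR and PXR targets outside the P450 families, 10 rose and 3 fell (median differences 0.23 and 0.33), where 6.81% of all genes tested rose and 4.26% fell. The glutathione transferase Gstm3 rose at 1.25 and 1.48 and the aldehyde dehydrogenase Aldh1a7 at 0.76 and 1.13. Gadd45b fell at -1.09 and -1.39, the carrier Slco1a4 at -0.91 and -0.41 and Ces2a at -0.73 and -0.45. Whether the lists differ was not tested. Of 6 tested AhR targets outside the P450 families 1 rose, Ugdh, and 1 fell, Fmo2. Fmo2 is the same gene that was counted among the female-biased genes.

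Transcription factors of P450 genes and the partners of the enzymes were also counted, where 6.81% of all genes tested rose and 4.26% fell. Of 28 tested factors, 1 rose and 4 fell (median differences -0.05 and -0.01). Onecut1, a liver homeodomain factor also called HNF6, rose at 1.06 and 0.81, and Ppara, Foxa2 and Tef fell along with Nr1i3. Hnf4a differed by -0.02 and -0.03, with a limma adjusted p of 0.89. Of 17 tested genes for redox partners and haem supply, 2 rose and 1 fell (median differences 0.14 and 0.18). Alas1, the rate-limiting enzyme of haem synthesis in liver, rose at 0.36 and 0.33, the cytochrome b5 gene Cyb5b rose at 0.43 and 0.64, and the haem synthesis enzyme Cpox fell at -0.57 and -0.45. The reductase gene Por was not analysed here.

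Markers of other liver cells were mixed, where 6.81% of all genes tested rose and 4.26% fell. Of 7 tested Kupffer cell markers, 2 rose and 1 fell, with log2 summed levels of 8.63 and 8.84 in KO livers, against 8.41 and 8.72 in WT livers. Of 8 endothelial markers 1 rose and 0 fell. Of 8 stellate cell markers 1 rose and 3 fell, with summed levels of 10.04 and 10.08 in KO livers, against 10.07 and 10.10 in WT livers. Dcn, the highest of the 8, weighs most in this sum, at 9.43 and 9.46 in KO livers, against 9.36 and 9.34 in WT livers. The sum therefore says little about the dimmer markers. The 3 that fell were the smooth muscle actin gene Acta2, at -2.01 and -1.86 with a limma adjusted p of 2.4e-07, and the collagen genes Col1a1, at -0.30 and -0.81, and Col3a1, at -0.24 and -0.75. Of 4 cholangiocyte markers 0 rose and 1 fell, and of 2 lymphocyte markers 0 passed. Their part in the P450 differences was not tested.

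The stretches before the start sites were compared across the family. RefSeq held a start-site stretch for 45 of the 54 members and for 30 of the 38 tested. Within subfamilies, 50 pairs were identical at 44.7 to 99.2% of aligned positions with a median of 57.2%, and 385 pairs from different subfamilies at 44.6 to 54.1% with a median of 49.8%. After Cyp2b9 and Cyp2b13, the closest pairs were Cyp2c37 with Cyp2c50 at 84.3%, Cyp2d10 with Cyp2d9 at 82.8% and Cyp2a12 with Cyp2a22. The first 2 of these pairs had close mean differences, at 0.11 and 0.15 for Cyp2c37 and Cyp2c50 and at -0.18 and -0.21 for Cyp2d10 and Cyp2d9, whereas Cyp2a12 and Cyp2a22 were at 0.01 and 0.58.

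The 4 short patterns were searched for on both strands. AGGTCA was found in 2 of 5 genes that rose, in 0 of 1 that fell and in 9 of 24 that did not pass, and in 14% of all 32851 stretches of RefSeq. TATAAA was found in 2 of 5 that rose, in 0 of 1 that fell and in 13 of 24 that did not pass, against 12.4% of all stretches. GCGTG was found in 1 of 5 that rose, Cyp2j9, and in 3 of 24 that did not pass, against 28.2% of all. The STAT5 pattern TTCNNNGAA was found in 2 of 45 members, of which 0 were among the 30 tested, against 7.02% of all. A match is a description of letters and not a measured site.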

How the data were processed

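Total RNA of liver was read on 4 Affymetrix Mouse Gene 1.0 ST arrays, 1 for each genotype and age. The deposited values are log2 levels. The submitters' processing notes name RMA and Affymetrix Expression Console 1.0v. RMA subtracts background, brings the arrays to 1 distribution and fits 1 value to the probes of a set, so differences of dim genes come out too small and a shift in total RNA is lost. The log base was taken from RMA. No source states the genome build or which arrays were normalized together. The number of arrays limits the precision.

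Of 35556 probe sets, 21789 had 1 platform symbol, 1621 had several and 12146 were not listed. Only those with 1 symbol were used, and the probe sets of a gene were averaged, which gave 19938 genes. Symbols were looked up in RefSeq (GRCm38.p6), which changed 0 of them, and 91 probe sets had no match. Genes were fitted with limma 3.58.1 in R 4.3.3 (lmFit and eBayes with an intensity trend, median prior of 11.3 degrees of freedom) and the fit was tested on simulated data. Start-site stretches were aligned with Biopython 1.88.

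Every P450 member may be named. Values on all arrays were given for members past the test and for the highest and lowest member of each subfamily with more than 1 tested member. The members and lists were chosen with earlier results of these data known. The lists come from general knowledge of liver biology. Alternatives were another filter, scaling, probe set or model term, and leaving out each array. Probe sets with several symbols were added after seeing the data.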

Additional observations from a re-analysis of the deposited data

Results flagged for a closer look

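A further 5 probe sets carry several P450 symbols each and are outside the gene comparisons above. Their values were drawn into the same limma fit after the data had been seen. In 4 of them both KO arrays lay above both WT arrays, of which 1 passed the test. Among all genes tested the KO and WT arrays did not overlap, in either direction, in 54.8%. In the other, shared by Cyp3a59, Cyp3a57 and Cyp3a25, the arrays overlapped, with differences of -0.34 at 8 months and 0.42 at 2 months and a limma adjusted p of 0.91.

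The probe set shared by Cyp2a5, the coumarin hydroxylase, and the female-biased Cyp2a4 read 10.52 and 10.69 in KO livers at 8 and 2 months, against 10.10 and 10.33 in WT livers. It passed the test with a mean difference of 0.3874 on the log2 scale and a limma adjusted p of 0.0052. Which of the 2 genes it reads cannot be told apart.

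The probe set shared by Cyp3a41b, Cyp3a44 and Cyp3a41a had a mean difference of 0.2903, with 0.04 at 8 months and 0.54 at 2 months, and a limma adjusted p of 0.14. The probe set that also names Cyp3a11 had a mean difference of 0.3018, with 0.04 and 0.56, and a limma adjusted p of 0.14. The probe set shared by Cyp2c69, Cyp2c67, Cyp2c68 and Cyp2c40 had a mean difference of 0.1323, with 0.02 and 0.24, and a limma adjusted p of 0.38. These 3 did not pass. As for the Cyp2c genes with a symbol of their own, their differences were larger at 2 months.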

How the results depend on the processing

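The mean differences of 18 P450 genes were followed through 13 settings, and 0 of them changed sign. Each of the 18 passed in the fit used above or under another setting. Genes with a mean difference near 0, such as Cyp2a12 at 0.01, were not among them. A gene's mean difference cannot change with another filter, or without the trend or the age term. The same holds for the brightest probe set and for added probe sets of several symbols. A sign could turn only under another scaling or with 1 array left out. At a single age signs near 0 did turn, as for Cyp2e1 at 2 months, at -0.02 as deposited and 0.03 after median centring, and for 1 of 2 Cyp2a genes at 2 months after cyclic loess. Cyp2b13, Cyp2b9, Cyp2d12, Cyp2d40, Cyp2u1 and Cyp3a13 passed under all 13. Of the values of the 18 genes under the 13 settings, 204 kept their side of the threshold, 21 passed only under the alternative and 9 were lost. The P450 genes that fell numbered 3, and 8 after cyclic loess, 7 after renewed quantile normalization, 1 without an intensity trend and 3 to 5 with 1 array left out, where those that rose numbered 5 to 9. Over all genes, those that rose numbered 815, and 463 without an expression filter, 521 without the trend and 276 to 627 with 1 array left out. Those that fell numbered 510, and 880 after cyclic loess, 289 without a filter, 325 without the trend and 228 to 388 with 1 array left out. Genes past the age test numbered 1, and 17 after cyclic loess, 2 with the brightest probe set or median centring, and 0 without a filter, without the trend, after quantile normalization, without the genotype term or with 1 array left out. At 2-fold, 78 genes were higher and 32 lower in KO at both ages. With probe sets of several symbols the Cyp2a median at 8 months was 0.42 and the Cyp3a median at 2 months 0.50. With all members on the array the Cyp2b medians were 0.12 at 8 months and 0.20 at 2 months. Fits on 3 arrays had no age term, and the lone array was assumed to vary like the others. Apart from fewer arrays or other genes tested, the cause was not tested.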
